A study of Arabidopsis thaliana with 36 samples.

Results

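The comparison described here set roots of the phyAB double mutant of Arabidopsis thaliana directly against roots of the hy5 mutant, both grown at 27 °C. It took the 3 count files titled as phyAB root at 27 °C and the 3 titled as hy5 root at 27 °C, which are 6 of the 36 libraries of the series, and a positive log2 fold change means more transcript in phyAB. The series covers roots and shoots of phyAB, hy5 and the Col-0 accession at 27 °C and at 21 °C, with 3 libraries per group. The 27 °C regime gave 27 °C by day and 21 °C by night, the 21 °C regime gave 21 °C by day and 15 °C by night, and both had 16 h of light and 8 h of darkness. Seedlings were 6 days old when collected. The mutant alleles are not named in the labels, which give a single name for each mutant. The labels also give conflicting times at the warmer setting: the series title names 4 h, whereas the growth description has plants moved on day 3 and left for another 3 days.

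Phytochromes are red and far-red light receptors, and phyA and phyB are the main ones in seedlings; phyB also loses its active form faster in warmth, so that it senses temperature as well as light. Active phytochromes hold back the PIF transcription factors and the COP1/SPA ubiquitin ligase. HY5 is a bZIP transcription factor that COP1 sends for degradation in the dark, and that binds promoters with the sequence CACGTG, the G-box, in light. It acts below the photoreceptors in greening, flavonoid synthesis and root growth, and it has been described as moving from shoot to root. Both mutants therefore lose parts of one light pathway, at the receptors in phyAB and at a transcription factor in hy5, and the direct comparison shows where their roots differ.

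The values are read counts per gene from poly(A) RNA sequencing with a strand-marking library kit and single reads of 50 bases. Counted reads per library were 19045764, 18075772 and 15816785 in phyAB roots at 27 °C, and 19439176, 19495616 and 16580613 in hy5 roots at 27 °C; the 18 root libraries ranged between 14810514 and 24006279. One label conflict touches this comparison: replicate 3 of phyAB roots, at both temperatures, has root in its title and tissue fields but shoot as its source name. It was used as a root library, since markers of the root epidermis summed to between 453.23 and 481.1 counts per 1000000 scaled reads (CPM) in the 3 phyAB libraries and between 387.76 and 451.45 CPM in the 3 hy5 libraries, against 10.609 to 27.605 CPM in shoots. Where leaving that library out moved a count of called list members by over 1.5 times, the count without it is given. The labels do not say whether replicates were separate plantings, so p-values measure the spread between these libraries, which may be partly technical.

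The genes named by the mutant labels were examined first. PHYA (chr1:3095160-3100819 in TAIR10.1) stood at 20.6, 17.7 and 22 CPM in the phyAB libraries, 177, 164 and 175 CPM in the hy5 libraries and 184, 181 and 186 CPM in the Col-0 libraries. The log2 fold change of phyAB over hy5 was −3.10 ± 0.08 (SE; adjusted p = 7.92e-15, edgeR's quasi-likelihood F test, corrected by the Benjamini-Hochberg method over all tested genes), and all phyAB values lay below all hy5 values. PHYB (chr2:8139756-8144461) stood at 31.5, 34.7 and 32.0 CPM in phyAB, 72.7, 71.2 and 72.2 CPM in hy5 and 100.04, 86.8 and 90.7 CPM in Col-0, a log2 fold change of phyAB over hy5 of −1.14 ± 0.07 (adjusted p = 1.21e-09, edgeR). Both phytochrome genes were lowest in the phyAB libraries, and PHYB in hy5 lay below Col-0 as well. HY5 itself (chr5:3593335-3595073) was low in both mutants: 19.9, 17.5 and 18.5 CPM in phyAB and 14.2, 13.3 and 11.2 CPM in hy5, against 47.2, 51.1 and 47.1 CPM in Col-0. It was higher in phyAB than in hy5 (log2 fold change 0.53 ± 0.11, adjusted p = 0.00227, edgeR), with no overlap between the mutants. HYH, the closest relative of HY5, read 4.01, 2.79 and 2.64 CPM in phyAB and 3.09, 1.98 and 2.09 CPM in hy5, against 15.3, 16.1 and 15.1 CPM in Col-0; the mutants overlapped and did not pass the test (0.40 ± 0.22, adjusted p = 0.26, edgeR). Transcript level says nothing of whether a mutant transcript yields protein.

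**Figure D1:**
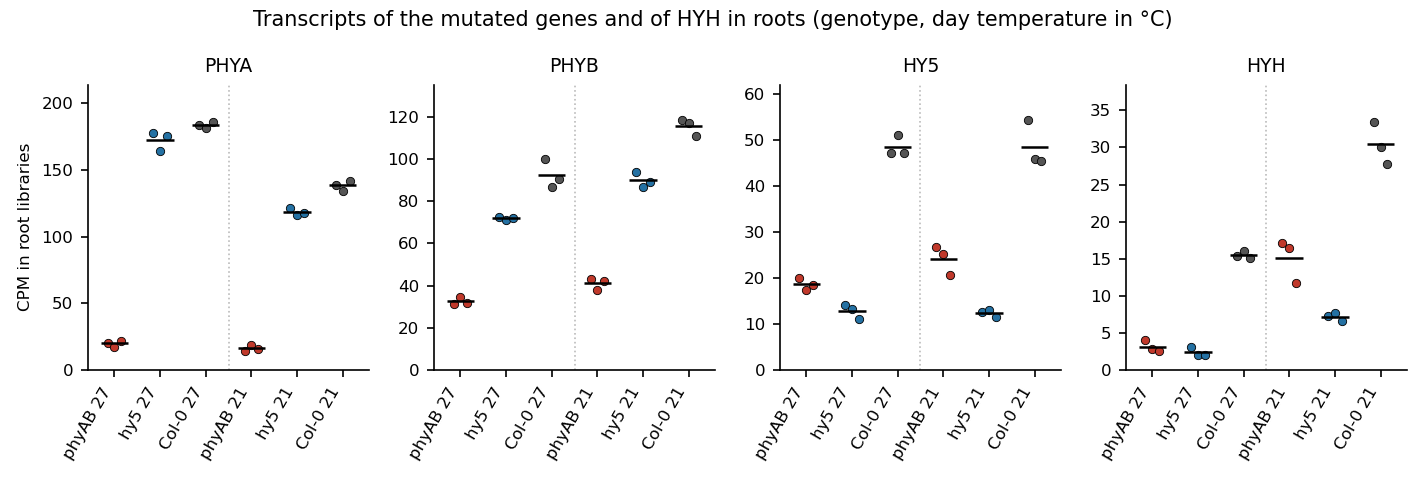
Transcript level (CPM) of PHYA, PHYB, HY5 and HYH in each root library, in phyAB, hy5 and Col-0 at 27 °C and 21 °C; dots are libraries and bars are group means. PHYA and PHYB are lowest in the phyAB libraries, whereas HY5 and HYH lie below Col-0 in both mutants.

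Of 20355 genes tested, 2870 (14.1%) differed between phyAB and hy5 roots at 27 °C at an adjusted p under 0.05. Of these, 1462 were higher in phyAB (7.18%) and 1408 lower (6.92%). The counts of called members in each list below are to be read beside these shares. A change of at least 2-fold was seen in 686 genes (3.37%), of which 333 were higher (1.64%) and 353 lower (1.73%). The median log2 fold change over all tested genes was −0.004, a value that the scaling of the libraries sets near 0. The median size of change among called genes was 0.593. The 3 phyAB libraries lay all above or all below the 3 hy5 libraries in 6931 genes (34.1%), and this held for 2826 of the called genes. For scale, 6337 genes (31.1%) were called in phyAB against Col-0 and 6797 (33.4%) in hy5 against Col-0; these comparisons share their libraries with the direct one, so below only the values of the 3 genotypes are set side by side.

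**Figure D2:**
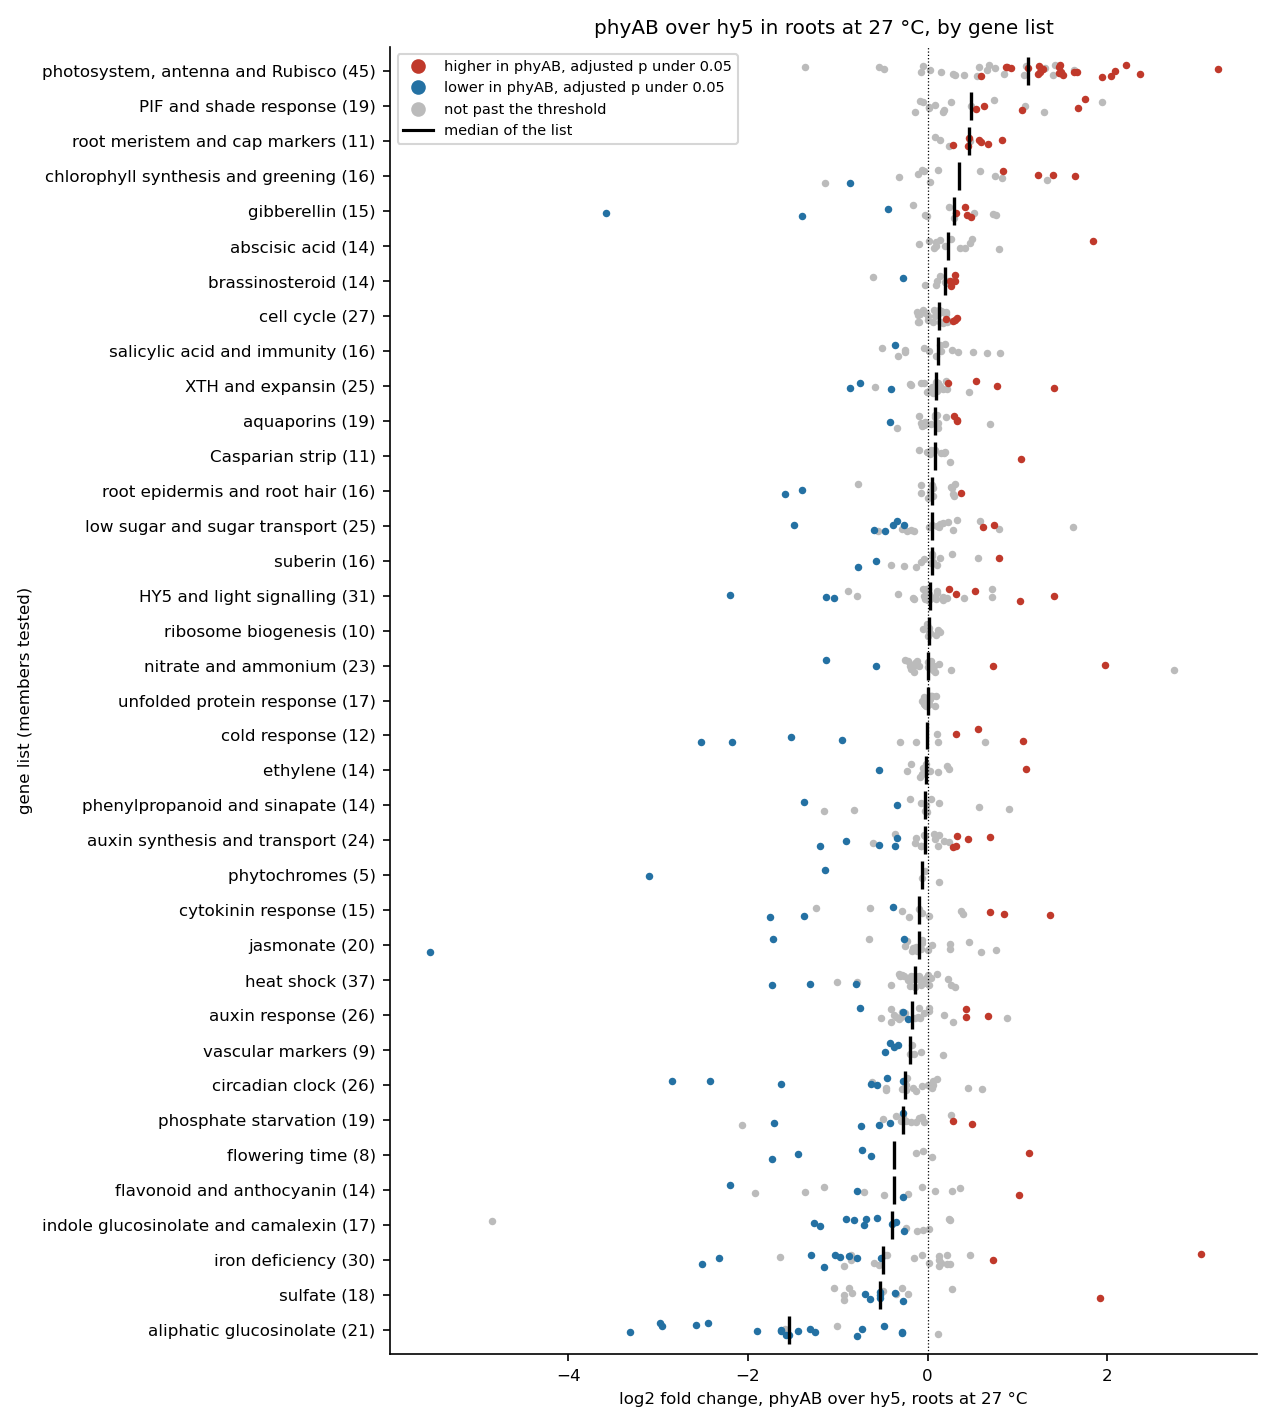
Log2 fold change of phyAB over hy5 in roots at 27 °C for each tested member of 37 gene lists, in order of the list median. Photosystem genes have the highest median, 1.11, and aliphatic glucosinolate genes the lowest, −1.54.

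The 2 lists at the ends of that order, photosystem and aliphatic glucosinolate genes, are described first, and a G-box lies upstream in some members of each. In the 250 bases before the annotated start, CACGTG (which reads the same on both strands) was found in 8 of 45 photosystem genes (17.8%), 2 of 21 aliphatic glucosinolate genes (9.52%), 117 genes called higher (8.01%), 126 called lower (8.95%) and 1465 of the 20330 tested genes with a window (7.21%). The windows of 3 genes with a G-box that differed between the mutants are printed below from RefSeq's TAIR10.1 genome, 5′ to 3′ on the gene's strand, with the G-box in capitals. They show CYP83A1, an enzyme of aliphatic glucosinolate synthesis (chr4:7992430-7992679, minus strand, G-box 43 bases before the start), CRD1, an enzyme of chlorophyll synthesis (chr3:21076255-21076504, plus strand, 52 bases) and GolS1, a galactinol synthase induced by heat (chr2:19370479-19370728, minus strand, 42 bases).
CYP83A1: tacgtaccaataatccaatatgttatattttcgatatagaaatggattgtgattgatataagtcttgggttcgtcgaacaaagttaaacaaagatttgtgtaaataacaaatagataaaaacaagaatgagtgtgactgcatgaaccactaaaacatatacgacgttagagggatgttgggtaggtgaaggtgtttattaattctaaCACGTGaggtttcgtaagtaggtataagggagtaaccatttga
CRD1: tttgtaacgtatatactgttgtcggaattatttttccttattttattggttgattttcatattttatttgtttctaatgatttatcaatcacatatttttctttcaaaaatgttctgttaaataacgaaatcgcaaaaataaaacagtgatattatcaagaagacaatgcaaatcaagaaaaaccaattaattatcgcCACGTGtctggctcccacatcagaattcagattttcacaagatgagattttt
GolS1: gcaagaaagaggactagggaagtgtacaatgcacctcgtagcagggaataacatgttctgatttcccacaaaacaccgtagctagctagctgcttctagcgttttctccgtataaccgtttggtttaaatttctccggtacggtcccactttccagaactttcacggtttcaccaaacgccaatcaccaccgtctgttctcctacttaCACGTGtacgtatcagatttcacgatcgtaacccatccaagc
CRD1 rose in phyAB over hy5, whereas CYP83A1 and GolS1 fell (values below). A match is a description of these letters and not evidence of a bound site.

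Nuclear genes of the photosystems, their antenna and Rubisco were higher in phyAB than in hy5 roots. Of 45 tested members out of 46 listed, 22 were higher and 0 lower, with a median log2 fold change of 1.11. Both mutants stood below Col-0: 33 members were lower and 1 higher in phyAB against Col-0 (median −1.23; 16.6% of all genes lower, 14.6% higher), and 37 were lower and 1 higher in hy5 against Col-0 (median −2.47; 17.4% lower, 16% higher). LHB1B2, an antenna protein of photosystem II, read 156, 248 and 150 CPM in phyAB, 28.7, 26.4 and 3.23 CPM in hy5 and 391, 308 and 355 CPM in Col-0. Its log2 fold change of phyAB over hy5 was 3.23 ± 0.41 (adjusted p = 2.7e-05, edgeR), with phyAB between hy5 and Col-0 in every library. LHB1B2 belongs to a family of nearly identical copies, so its reads may be split among them; its neighbour LHB1B1 had under 1 CPM in every root library at 27 °C. PSAF, a subunit of photosystem I that docks plastocyanin, read 24.4, 29.9 and 20.1 CPM in phyAB, 7.72, 6.56 and 3.05 CPM in hy5 and 58.1, 52.8 and 63.8 CPM in Col-0 (log2 fold change 2.08 ± 0.21, adjusted p = 2.36e-06, edgeR). LHCA3, a photosystem I antenna protein, read 18.5, 38.5 and 17.6 CPM in phyAB and 5.97, 6.46 and 1.80 CPM in hy5 (2.36 ± 0.35). PSAO, another photosystem I subunit, read 6.95, 12.6 and 6.5 CPM in phyAB and 2.21, 2.14 and 1.2 CPM in hy5 (2.21 ± 0.30). In each of these genes the lowest phyAB library exceeded the highest hy5 library.

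The libraries of one group were not alike in these genes. Summed over the 46 photosystem genes, none of which was at 0 throughout, the level was 519.52, 934.01 and 440.91 CPM in phyAB replicates 1 to 3, 275.56, 292.61 and 152.07 CPM in hy5 replicates 1 to 3, and 1613.5, 1339.8 and 1467.9 CPM in Col-0 replicates 1 to 3. Shoot libraries held 199740 to 322270 CPM. Whether a small admixture of shoot tissue had a part in the difference was not tested. In bulk RNA, fewer cells of a type and less RNA per cell cannot be told apart, here or in any list below. The count of higher members was 14 without phyAB replicate 2, when 1 was lower, and 14 without hy5 replicate 3; without phyAB replicate 3, the library with the conflicting source name, it was 29. CAB1, a further antenna gene, shows the unevenness: it read 2.74, 45.0 and 2.82 CPM in phyAB and 7.05, 9.62 and 2.27 CPM in hy5, and did not pass the test. RBCS1A, a Rubisco small subunit, read 1.93, 18.8 and 1.47 CPM in phyAB and 10.7, 13.6 and 7.06 CPM in hy5, also without a call. LHB1B2, PSAF, LHCA3 and PSAO kept their calls in every run that left out a library.

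Genes of chlorophyll synthesis and greening were mixed. Of 16 tested, 4 were higher and 1 lower (median 0.35). GUN5, the H subunit of magnesium chelatase, read 18.1, 22.9 and 15.0 CPM in phyAB, 8.91, 7.58 and 4.55 CPM in hy5 and 96.1, 79.7 and 88.0 CPM in Col-0 (log2 fold change 1.40 ± 0.18, adjusted p = 2.7e-05, edgeR). CRD1, the cyclase that closes the fifth ring of chlorophyll and whose promoter is printed above, read 14.5, 23.2 and 13.7 CPM in phyAB, 8.39, 8.29 and 5.03 CPM in hy5 and 72.9, 61.4 and 67.9 CPM in Col-0 (1.23 ± 0.20, adjusted p = 0.000372, edgeR). G4, chlorophyll synthase, read 1.57, 2.2 and 2.51 CPM in phyAB and 1.03, 0.509 and 0.419 CPM in hy5 (1.64 ± 0.30). All 3 enzymes stood well below Col-0 in both mutants, with phyAB the nearer to Col-0. GLK2, a transcription factor that activates these genes, went the other way: it read 20.3, 20.9 and 20.2 CPM in phyAB, 39.1, 36.8 and 35.8 CPM in hy5 and 21.9, 23.3 and 23.8 CPM in Col-0 (−0.86 ± 0.12, adjusted p = 8.12e-05, edgeR). Its phyAB values lay just under those of Col-0, and its hy5 values above both.

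**Figure D3:**
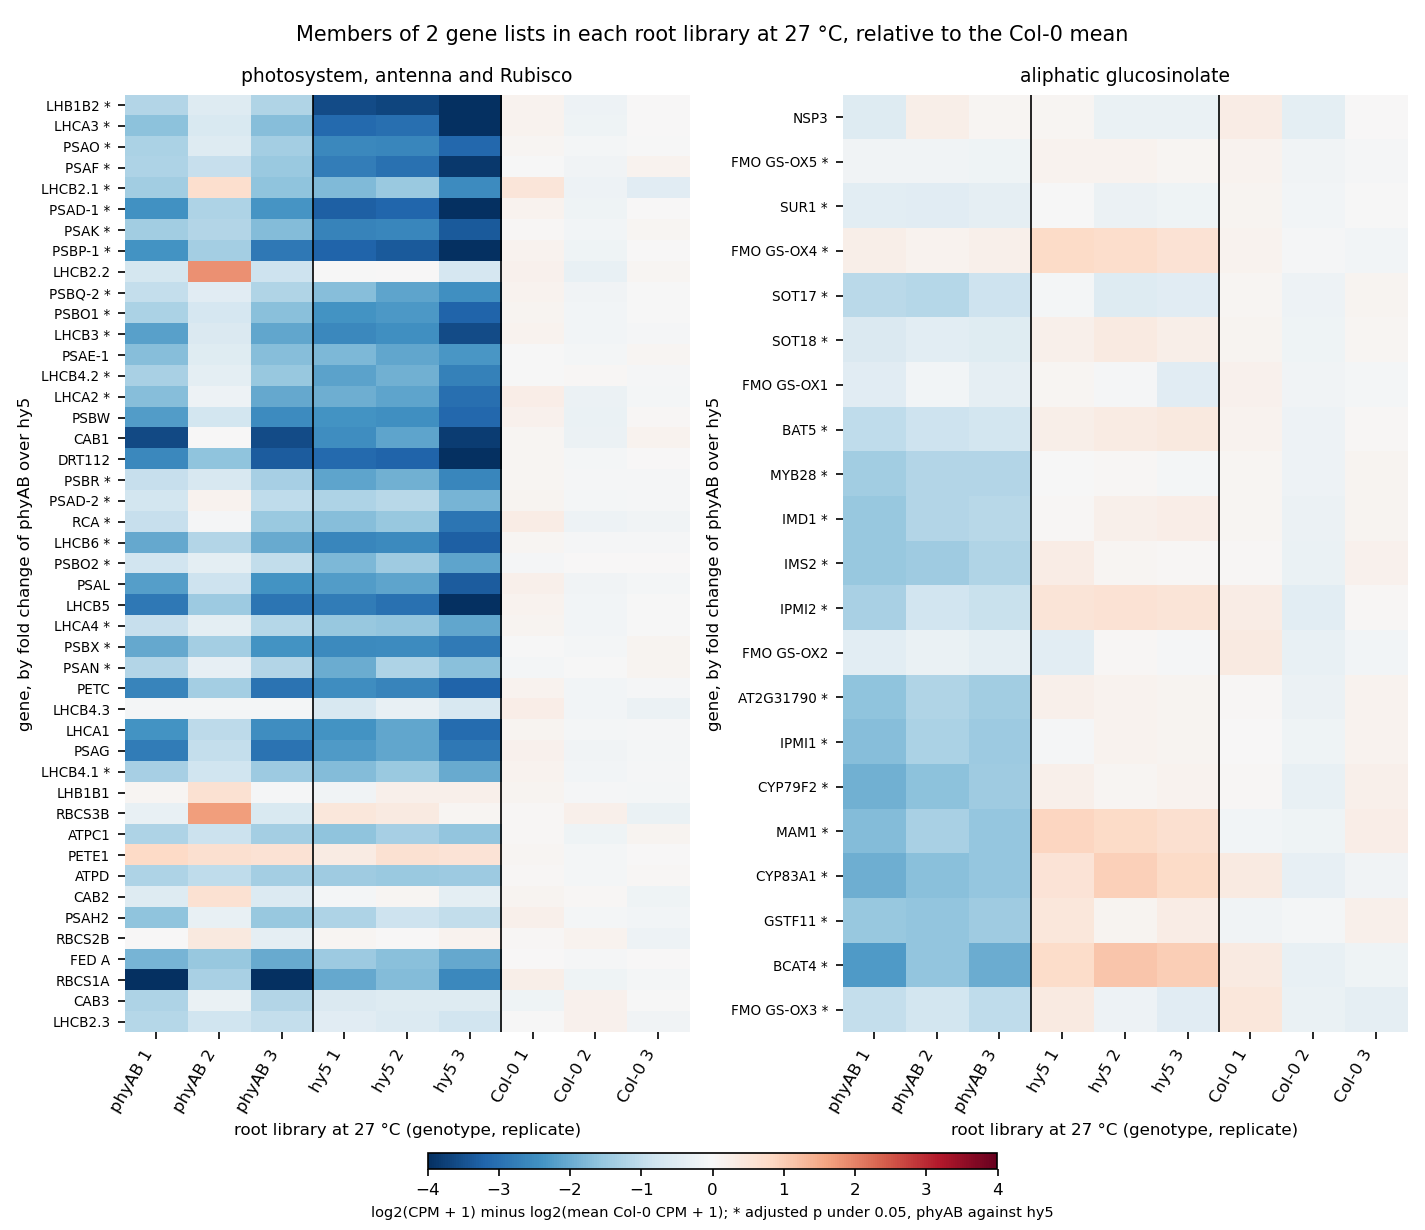
Level of each tested photosystem (left) and aliphatic glucosinolate (right) gene in the 3 phyAB, 3 hy5 and 3 Col-0 root libraries at 27 °C, as log2(CPM + 1) minus log2 of the mean Col-0 CPM + 1; stars mark genes called between phyAB and hy5. Most photosystem genes are below Col-0 in both mutants and most are lowest in hy5, with phyAB replicate 2 and hy5 replicate 3 standing apart from their groups. Most glucosinolate genes are below Col-0 in phyAB alone.

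Genes of aliphatic glucosinolate synthesis were lower in phyAB than in hy5 roots. Glucosinolates are sulfur-rich defence compounds of the cabbage family, and the aliphatic ones are made from chain-elongated methionine. Of 21 tested members out of 24 listed, 18 were lower and 0 higher, with a median log2 fold change of −1.54. In all 18 the phyAB libraries lay below the hy5 libraries without overlap, as the mutants were apart in 2826 of all 2870 called genes. Against Col-0, 16 were lower and 0 higher in phyAB (median −1.39), and 7 were higher and 0 lower in hy5 (median 0.14).

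Members with large changes include enzymes of several steps. The largest fall in the list, a log2 fold change of −3.31, was in a member not described here. BCAT4 (chr3:6846969-6849582), the aminotransferase that starts the elongation of methionine, read 7.91, 13.4 and 9.75 CPM in phyAB, 69.9, 91.7 and 83.4 CPM in hy5 and 54.4, 33.9 and 37.0 CPM in Col-0. Its log2 fold change of phyAB over hy5 was −2.98 ± 0.18 (adjusted p = 2.11e-09, edgeR). MAM1, the methylthioalkylmalate synthase that follows it, read 4.97, 7.08 and 5.77 CPM in phyAB, 34.9, 32.7 and 29.5 CPM in hy5 and 17.3, 16.5 and 22.5 CPM in Col-0 (−2.45 ± 0.15, adjusted p = 2.11e-09, edgeR). For both genes the 3 genotypes formed separate ranges, phyAB below Col-0 and hy5 at the top. CYP83A1, which oxidises the aldoximes of the core pathway and carries the G-box printed above, read 9.28, 11.7 and 12.7 CPM in phyAB, 57.2, 75.7 and 67.6 CPM in hy5 and 50.6, 31.0 and 35.6 CPM in Col-0 (−2.58 ± 0.18, adjusted p = 1.36e-08, edgeR). GSTF11, a glutathione transferase of the pathway, read 0.558, 0.483 and 0.675 CPM in phyAB and 5.10, 3.82 and 4.49 CPM in hy5 (−2.96 ± 0.22, adjusted p = 2.34e-08, edgeR). MYB28, the transcription factor that activates the aliphatic pathway, was picked out after its values were seen. It read 9.84, 11.6 and 11.7 CPM in phyAB, 27.3, 28.4 and 25.9 CPM in hy5 and 29.0, 23.6 and 29.9 CPM in Col-0 (−1.30 ± 0.13, adjusted p = 1.2e-06, edgeR), so hy5 and Col-0 overlapped and phyAB stood below both. Among the 3 members without a call, NSP3, a nitrile-specifier protein that acts on glucosinolate breakdown, read 6.54, 11.6 and 10.2 CPM in phyAB and 10.14, 7.89 and 7.90 CPM in hy5. The count of lower members stayed between 16 and 18 whichever library was left out, and was 17 without phyAB replicate 3 at both temperatures.

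The indole branch, which starts from tryptophan, was lower in phyAB too. Of 17 tested genes, 10 were lower and 0 higher (median −0.39). CYP81F4, which modifies the indole ring, read 373, 326 and 409 CPM in phyAB, 1045.7, 854 and 750 CPM in hy5 and 1131.6, 761 and 877 CPM in Col-0 (log2 fold change −1.26 ± 0.14, adjusted p = 6.1e-06, edgeR). CYP79B3, which turns tryptophan into its aldoxime, read 83.2, 65.4 and 77.0 CPM in phyAB, 224, 156 and 137 CPM in hy5 and 197, 196 and 225 CPM in Col-0 (−1.20 ± 0.16, adjusted p = 4.58e-05, edgeR). CYP79B2, its partner in that step, read 90.3, 75.1 and 87.3 CPM in phyAB, 202, 142 and 128 CPM in hy5 and 201, 171 and 185 CPM in Col-0 (−0.90 ± 0.15, adjusted p = 0.000323, edgeR). In the 3 genes phyAB lay below both other genotypes. Against Col-0, 12 genes of the branch were lower and 2 higher in phyAB (median −0.77), and 3 were lower and 3 higher in hy5 (median −0.24).

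Of 18 genes of sulfate uptake and assimilation, 7 were lower in phyAB, 1 was higher and 10 were not called (median −0.53). SULTR1;1, a high-affinity root sulfate transporter, was the one higher call: it read 9.48, 13.6 and 12.6 CPM in phyAB, 3.09, 3.15 and 3.17 CPM in hy5 and 5.89, 7.57 and 7.09 CPM in Col-0 (log2 fold change 1.92 ± 0.21, adjusted p = 3.79e-06, edgeR). APR1, one of the reductases of activated sulfate, read 48.5, 53.2 and 60.0 CPM in phyAB, 100.4, 85.7 and 76.3 CPM in hy5 and 113.4, 51.4 and 69.8 CPM in Col-0 (−0.70 ± 0.19, adjusted p = 0.0184, edgeR). The mutants did not overlap in either gene, but Col-0 ranged across the mutants' APR1 values. The lower calls changed when single libraries were left out, and each such fit has fewer libraries. APR1 reached an adjusted p of 0.0814 without phyAB replicate 1, 0.0571 without phyAB replicate 2 and 0.0841 without hy5 replicate 1 (edgeR). The count of 7 was 3, 2 and 3 in those runs. It was 12 in a fit of the 6 libraries of the comparison alone.

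**Figure D4:**
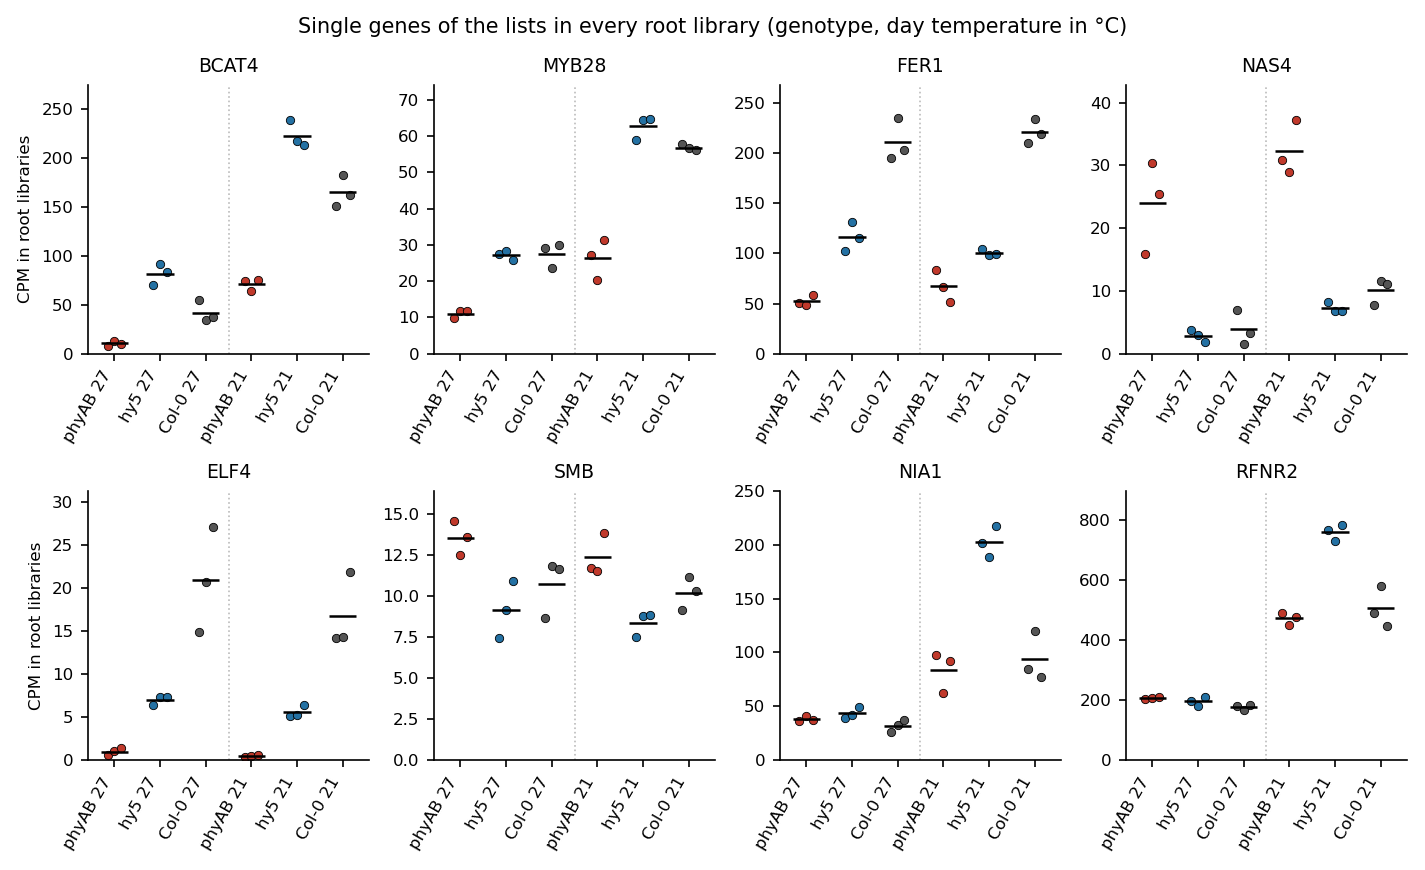
Transcript level (CPM) of 8 genes described in the text, in each root library of phyAB, hy5 and Col-0 at 27 °C and 21 °C; dots are libraries and bars are group means. At 27 °C phyAB lies below hy5 in BCAT4, MYB28, FER1 and ELF4 and above it in NAS4 and SMB, whereas NIA1 and RFNR2 differ at 21 °C.

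Genes of iron handling were mostly lower in phyAB where they were called. Of 30 tested members of the iron list, 9 were lower and 2 higher in phyAB (median −0.50). The lower ones were led by 3 genes that RefSeq describes as vacuolar iron transporter family members. AT1G76800 (VTL2) read 4.16, 3.97 and 4.72 CPM in phyAB, 22.3, 23.8 and 17.8 CPM in hy5 and 20.2, 20.5 and 18 CPM in Col-0 (log2 fold change −2.32 ± 0.16, adjusted p = 1.11e-08, edgeR). AT1G21140 (VTL1) read 2.08, 1.4 and 3.01 CPM in phyAB, 12.2, 14.8 and 9.40 CPM in hy5 and 19.1, 15.0 and 13.7 CPM in Col-0 (−2.51 ± 0.34, adjusted p = 5.28e-05, edgeR). AT3G25190 (VTL5) read 80.0, 82.8 and 89.6 CPM in phyAB, 181, 224 and 213 CPM in hy5 and 144, 127 and 118 CPM in Col-0 (−1.29 ± 0.17, adjusted p = 3.49e-05, edgeR). In all 3 the phyAB libraries were the lowest of the 3 genotypes. FER1 (chr5:227953-230051), a ferritin that stores iron in plastids, read 50.8, 48.7 and 58.1 CPM in phyAB, 102, 132 and 115 CPM in hy5 and 195, 235 and 204 CPM in Col-0 (−1.15 ± 0.13, adjusted p = 6.65e-06, edgeR), so both mutants were below Col-0 and phyAB furthest. NAS4, one of the nicotianamine synthases that make a metal chelator, went the other way, at 15.9, 30.4 and 25.5 CPM in phyAB, 3.71, 2.95 and 1.92 CPM in hy5 and 6.93, 1.6 and 3.23 CPM in Col-0 (3.04 ± 0.34, adjusted p = 6.72e-06, edgeR).

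The uptake machinery was looked at after its values were seen. IRT1, the main root iron transporter, read 53.3, 29.2 and 52.8 CPM in phyAB and 124.3, 76.9 and 56.5 CPM in hy5, without overlap but with a wide spread and no call (log2 fold change −0.93 ± 0.37, adjusted p = 0.108, edgeR). FRU, the bHLH factor also called FIT that activates IRT1, was lower in phyAB at 63.2, 69.1 and 80.2 CPM, against 126, 130 and 110 CPM in hy5, and stood at 64.6, 51.9 and 51.3 CPM in Col-0 (−0.79 ± 0.11, adjusted p = 8.06e-05, edgeR). For FRU it was hy5 that stood apart from Col-0. OPT3, a transporter that loads iron into the phloem, was the second higher call (0.73 ± 0.23, adjusted p = 0.0431, edgeR), and it was lost without hy5 replicate 2 (0.118), hy5 replicate 3 (0.163), phyAB replicate 2 (0.128) or phyAB replicate 3 (0.118). The count of lower members stayed between 7 and 9 in the runs that left out a library.

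Light signalling genes were called in both directions, beside 7.18% of all tested genes higher and 6.92% lower. The lower ones were near that share. Of 31 tested members of the HY5 and light signalling list, 5 were higher and 3 lower (median 0.03). SPA4, a partner of COP1, read 1.72, 2.31 and 1.53 CPM in phyAB, 0.721, 0.814 and 0.539 CPM in hy5 and 9.91, 8.62 and 8.93 CPM in Col-0 (log2 fold change 1.41 ± 0.25, adjusted p = 0.000741, edgeR). BZS1, a B-box factor also known as BBX20, read 4.21, 4.88 and 3.93 CPM in phyAB, 2.32, 2.70 and 1.26 CPM in hy5 and 13.6, 18.1 and 20.2 CPM in Col-0 (1.03 ± 0.24, adjusted p = 0.00707, edgeR). ELIP2, an early light-induced chlorophyll-binding protein, was lower in phyAB at 0.609, 0.483 and 0.613 CPM, against 1.39, 1.32 and 1.02 CPM in hy5 and 17.1, 19.4 and 19.3 CPM in Col-0 (−1.13 ± 0.25, adjusted p = 0.00446, edgeR). These 3 genes were far below Col-0 in both mutants, whichever mutant was the lower. The higher count was 3 without hy5 replicate 2, hy5 replicate 3 or phyAB replicate 1, and the lower count 5 without hy5 replicate 3. ELIP1, a relative of ELIP2, had the largest fall of the list (log2 fold change −2.20). Its call was lost without phyAB replicate 2 (adjusted p = 0.0509, edgeR) or hy5 replicate 1 (0.101).

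The PIF genes and genes of the shade response were higher in phyAB where they were called. Of 19 tested, 5 were higher and 0 lower (median 0.48). HFR1, an atypical bHLH protein that blocks PIFs, read 5.78, 7.78 and 4.78 CPM in phyAB, 2.63, 2.04 and 1.02 CPM in hy5 and 16.3, 16.1 and 15.5 CPM in Col-0 (log2 fold change 1.67 ± 0.25, adjusted p = 0.000107, edgeR). PIF3 read 3.14, 3.38 and 3.07 CPM in phyAB, 1.85, 1.22 and 1.56 CPM in hy5 and 4.27, 5.61 and 4.07 CPM in Col-0 (1.05 ± 0.22, adjusted p = 0.0029, edgeR). Both genes had phyAB between hy5 and Col-0. PIL1, a shade marker, stayed under 1 CPM in every library of both mutants, at 0.964, 0.698 and 0.920 CPM in phyAB and 0.206, 0.153 and 0.419 CPM in hy5 (1.75 ± 0.40, adjusted p = 0.0057, edgeR). The count was 3, namely HFR1, PIF3 and PIL1, in each run that left out a library and in DESeq2.

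Flavonoid genes were low in both mutants, and 11 of the 25 listed were too low to test. Of the 14 tested, 1 was higher and 3 lower between the mutants (median −0.38). Against Col-0, 12 were lower in phyAB (median −4.44) and 12 in hy5 (median −3.66). TT4, chalcone synthase, the first enzyme of the pathway, read 1.83, 2.31 and 2.27 CPM in phyAB, 15.0, 12 and 1.62 CPM in hy5 and 473, 479 and 516 CPM in Col-0. The call between the mutants (log2 fold change −2.19 ± 0.50, adjusted p = 0.00566, edgeR) came from hy5 replicates 1 and 2, since hy5 replicate 3 lay below all phyAB libraries. MYB12, the flavonol regulator that is a known HY5 target, was the higher call (1.01 ± 0.33, adjusted p = 0.0484, edgeR) and missed the threshold without hy5 replicate 2 (0.206), hy5 replicate 3 (0.184), or phyAB replicate 1 (0.106), 2 (0.102) or 3 (0.102). The lower count was 6 without hy5 replicate 3 and 1 without hy5 replicate 1.

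Clock genes were lower in phyAB where called: 7 of 26 tested were lower and 0 higher (median −0.25). ELF4, part of the evening complex that also carries temperature information, read 0.558, 1.07 and 1.35 CPM in phyAB, 6.44, 7.33 and 7.30 CPM in hy5 and 14.9, 20.7 and 27.1 CPM in Col-0 (log2 fold change −2.84 ± 0.31, adjusted p = 4.99e-06, edgeR). PRR5, a pseudo-response regulator that represses morning genes, read 9.08, 9.66 and 12.3 CPM in phyAB, 28.0, 31.0 and 36.9 CPM in hy5 and 19.4, 23.5 and 31.3 CPM in Col-0 (−1.63 ± 0.29, adjusted p = 0.000714, edgeR). For ELF4 phyAB lay below hy5 and hy5 below Col-0, while for PRR5 only phyAB stood apart. The morning gene CCA1, given for contrast after its values were seen, read 18.4, 17.1 and 12.6 CPM in phyAB and 21.2, 14.6 and 10.7 CPM in hy5 with no call. The count of 7 was 2 without phyAB replicate 1, 4 without phyAB replicate 2, phyAB replicate 3 or hy5 replicate 2, and 3 without hy5 replicate 3; ELF4 and PRR5 kept their calls throughout. The labels give no hour of collection.

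Of 12 cold genes 7 were called, beside 14.1% of all tested genes. In the heat shock list 3 of 37 were lower, near the share of all tested genes (6.92%), and 0 higher (median −0.14). The unfolded protein response list had 0 of 17 in either direction (median 0.00). GolS1, the galactinol synthase whose promoter is printed above, read 18.7, 20.3 and 16.4 CPM in phyAB, 76.0, 65.5 and 42.6 CPM in hy5 and 64.8, 38.2 and 29.0 CPM in Col-0 (log2 fold change −1.73 ± 0.26, adjusted p = 0.000125, edgeR). HSP18.2, a small heat shock protein, read 0.964, 1.34 and 0.859 CPM in phyAB and 2.11, 3.05 and 2.75 CPM in hy5 (−1.31 ± 0.23, adjusted p = 0.000512, edgeR). Both genes had all phyAB values below all hy5 values; the count of 3 was 5 without hy5 replicate 3 and 6 in a fit of the 6 libraries alone. In the cold list of 12, 4 were lower and 3 higher: KIN1, a cold- and drought-induced protein, read 3.35, 2.58 and 1.47 CPM in phyAB, 21.2, 11.4 and 10.5 CPM in hy5 and 90.9, 87.5 and 85.5 CPM in Col-0 (−2.52 ± 0.29, adjusted p = 7.37e-06, edgeR). LTI78, another cold-induced gene, was higher in phyAB at 43.5, 40.7 and 27.6 CPM, against 18.6, 17.5 and 17.8 CPM in hy5 and 100.2, 95.1 and 101.4 CPM in Col-0 (1.06 ± 0.12, adjusted p = 8.81e-06, edgeR).

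In the hormone lists a few members each were called, beside 7.18% of all tested genes higher and 6.92% lower. In the gibberellin list 4 of 15 were higher and 3 lower. ATGA2OX1, which inactivates gibberellin, read 0.304, 0.322 and 0.0613 CPM in phyAB, 2.37, 3.21 and 3.17 CPM in hy5 and 2.49, 4.15 and 3.69 CPM in Col-0 (log2 fold change −3.58 ± 0.43, adjusted p = 1.42e-05, edgeR). GA20OX1, a synthesis enzyme, also fell, at 0.558, 0.912 and 0.859 CPM in phyAB and 1.65, 2.24 and 2.27 CPM in hy5 (−1.40 ± 0.28, adjusted p = 0.00181, edgeR), so a gene of breakdown and a gene of synthesis were lower together. In the cytokinin list 3 of 15 were higher and 3 lower, and the higher count was 1 without hy5 replicate 2 or phyAB replicate 1. CKX4, a cytokinin oxidase, read 7.25, 7.73 and 9.38 CPM in phyAB, 28.3, 23.4 and 30.4 CPM in hy5 and 12.7, 12.8 and 16.2 CPM in Col-0 (−1.76 ± 0.28, adjusted p = 0.000259, edgeR). ARR3, a type-A response regulator, was higher in phyAB at 10.4, 8.69 and 11 CPM, against 6.75, 5.55 and 4.37 CPM in hy5 (0.85 ± 0.15, adjusted p = 0.000735, edgeR). Among 24 genes of auxin synthesis and transport 5 were higher and 5 lower. The higher count was 3 without hy5 replicate 2 or phyAB replicate 3, and the lower count 3 without hy5 replicate 2, without any one of the phyAB replicates, in DESeq2 and in a fit of the 6 libraries alone. YUC3, a flavin monooxygenase of auxin synthesis, was higher in phyAB at 13.8, 15.3 and 16.2 CPM, against 9.47, 8.65 and 9.75 CPM in hy5 (0.70 ± 0.09, adjusted p = 4.24e-05, edgeR). EIR1, the root auxin exporter PIN2, was higher at 165.7, 160.2 and 178.7 CPM in phyAB, against 123.2, 119.8 and 125.8 CPM in hy5 (0.45 ± 0.09, adjusted p = 0.00159, edgeR). YUC6 was lower (−0.55 ± 0.13, adjusted p = 0.00603, edgeR), and the 26 auxin response genes split into 3 higher and 3 lower. The ethylene list had 1 of 14 higher and 1 lower, and the lower call was lost without hy5 replicate 1, hy5 replicate 3, phyAB replicate 2 or phyAB replicate 3. ETR2, an ethylene receptor, was the higher one, at 6.09, 7.40 and 5.58 CPM in phyAB, against 2.42, 3.10 and 3.47 CPM in hy5 (1.09 ± 0.18, adjusted p = 0.000302, edgeR).

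Markers of the root tip were higher in phyAB where they were called. Of 11 markers of the root meristem and root cap, 7 were higher and 0 lower in phyAB, and all 11 had a positive log2 fold change (median 0.47). BBM, an AP2 factor of the stem cell niche, read 9.99, 11.5 and 10.3 CPM in phyAB, 4.74, 7.89 and 7.42 CPM in hy5 and 7.63, 9.67 and 7.38 CPM in Col-0 (0.67 ± 0.15, adjusted p = 0.00545, edgeR). SMB, a NAC factor of root cap maturation, read 14.6, 12.5 and 13.6 CPM in phyAB, 7.47, 9.16 and 10.9 CPM in hy5 and 8.67, 11.8 and 11.7 CPM in Col-0 (0.57 ± 0.14, adjusted p = 0.00818, edgeR). The mutants did not overlap in either gene. Summed over the list the level was 170.01, 167.32 and 166.17 CPM in phyAB, 124.39, 138.5 and 146.39 CPM in hy5 and 138.05 to 152.26 CPM in Col-0. The share of tip cells in each library, and its part in other results, was not tested. The count of 7 was 2 without hy5 replicate 1, when SMB reached an adjusted p of 0.0545 (edgeR), and 4 without phyAB replicate 1 or 3; BBM kept its call throughout. The cell cycle list had 4 of 27 higher and 0 lower (median 0.13), a count that was 2 without hy5 replicate 2 or phyAB replicate 1.

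Of 9 vascular markers 4 were lower in phyAB and 0 higher (median −0.20), and the sum was 416.22 to 461.07 CPM in phyAB, 524.44 to 545.33 CPM in hy5 and 367.57 to 385.3 CPM in Col-0. IRX3, a cellulose synthase of secondary walls, read 70.0, 57.3 and 65.4 CPM in phyAB, 89.9, 83.8 and 95 CPM in hy5 and 62.0, 60.8 and 58.6 CPM in Col-0 (log2 fold change −0.48 ± 0.09, adjusted p = 0.00174, edgeR), so the hy5 libraries were the ones apart; the count of 4 was 2 without phyAB replicate 2. Among 16 genes of the root epidermis and hair, 1 was higher and 2 lower; the higher call was lost without phyAB replicate 2 or hy5 replicate 1, and the lower count was 1 without phyAB replicate 1, phyAB replicate 2 or hy5 replicate 1. RSL4, the bHLH factor that sets hair length, read 3.90, 4.19 and 3.74 CPM in phyAB, 10.7, 11.7 and 8.80 CPM in hy5 and 13.1, 13.9 and 13.6 CPM in Col-0 (−1.40 ± 0.13, adjusted p = 1.01e-06, edgeR). Of 11 Casparian strip genes only CASP5 was called, higher in phyAB at 43.9, 39.9 and 47.2 CPM, against 28.7, 19.2 and 15.4 CPM in hy5 (1.04 ± 0.23, adjusted p = 0.00384, edgeR); a second member was higher without hy5 replicate 3. Of all tested genes 7.18% were higher and 6.92% lower, and the epidermis and Casparian strip counts are near those shares. Of 25 wall-loosening XTH and expansin genes, 4 were higher and 3 lower, a few genes from the same shares. EXPA14 read 95.3, 91.6 and 94.0 CPM in phyAB and 54.3, 50.5 and 60.3 CPM in hy5 (0.77 ± 0.09, adjusted p = 1.83e-05, edgeR). XTH21, a xyloglucan endotransglucosylase, read 39.2, 33.4 and 36.5 CPM in phyAB and 68.5, 63.0 and 67.6 CPM in hy5 (−0.87 ± 0.08, adjusted p = 7.18e-07, edgeR).

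Some single genes with large changes lay outside these lists. HKT1 (chr4:6391854-6395922), a sodium transporter that keeps sodium out of the xylem, read 3.14, 4.51 and 2.27 CPM in phyAB, 52.7, 39.3 and 50.3 CPM in hy5 and 12.6, 9.39 and 8.05 CPM in Col-0 (log2 fold change −3.83 ± 0.26, adjusted p = 1.3e-08, edgeR). DML1 (chr2:15307907-15314807), the DNA demethylase also called ROS1, read 67.3, 55.7 and 66.9 CPM in phyAB, 10.3, 7.94 and 10.4 CPM in hy5 and 17.5, 16.3 and 14.3 CPM in Col-0 (2.73 ± 0.13, adjusted p = 1.2e-10, edgeR). In both genes the mutants lay on opposite sides of Col-0. SQE3, a squalene epoxidase of sterol synthesis, read 14.5, 15 and 14 CPM in phyAB, 3.35, 3.10 and 2.21 CPM in hy5 and 51.3, 38 and 40.4 CPM in Col-0 (2.32 ± 0.18, adjusted p = 4.45e-08, edgeR). AK3, an aspartate kinase, was lower in phyAB at 4.77, 5.74 and 5.28 CPM, against 29.1, 31.9 and 28.5 CPM in hy5 and 25.4, 15.8 and 19.5 CPM in Col-0 (−2.50 ± 0.18, adjusted p = 1.55e-08, edgeR). VSP2, a jasmonate-induced acid phosphatase, had 0.0507, 0 and 0.491 CPM in phyAB, against 7.26, 9.36 and 7.36 CPM in hy5 and 7.38, 1.23 and 1.59 CPM in Col-0 (−5.54 ± 0.79, adjusted p = 8.52e-05, edgeR). These phyAB values stand for 1, 0 and 8 reads, and the hy5 values for 141, 184 and 123 reads. Without phyAB replicate 3, the ratio of hy5 to phyAB rests on 1 phyAB read and is 308, with a 95% Poisson interval of 55.3 to 12200 that covers counting error only. HKT1, SQE3 and AK3 were picked by a rule set after values were seen, which kept genes with a symbol and at least 1 CPM in Col-0.

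Other large changes were in loci read in one line and next to none in the other. LBD26 (chr3:10373251-10376480), a LOB-domain protein gene, had 202, 161 and 145 reads in the phyAB libraries, 0, 1 and 1 in the hy5 libraries and 124 in all of Col-0 at 27 °C, a ratio of phyAB to hy5 of 259 (95% Poisson interval 71.8 to 2140, counting error only). AT2G03965 (chr2:1251510-1252989), a gene of an uncharacterised protein, had 1 read in all phyAB libraries, against 4388, 4502 and 4013 in the hy5 libraries and 3 in Col-0. Its ratio of hy5 to phyAB was 12600 (95% Poisson interval 2270 to 499000, counting error only). AT2G06562, a non-coding RNA, had 0 reads in phyAB and 970, 1035 and 857 in hy5, at least 935-fold lower in phyAB when 3 reads over the group are taken as the floor. At 27 °C, 13 loci had at least 1 CPM in each hy5 library and no more than 3 reads over all phyAB and Col-0 libraries together, a limit that AT2G03965 just missed. Of the 13, 8 lie on chromosome 2, 2 on chromosome 3, 2 on chromosome 4 and 1 on chromosome 1; 11 of them also had at least 1 CPM in each hy5 library at 21 °C. By the same limits phyAB had 1 such locus, AT1G27565. These reads go with the line, and the hy5 mutation cannot be told apart from other sequence differences of that line.

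The same comparison at 21 °C shares no library with the one at 27 °C. At 21 °C 5051 genes were called (24.8%), 2645 higher (13%) and 2406 lower (11.8%). Both temperatures called 1925 genes, 67.1% of the 27 °C calls and 38.1% of the 21 °C calls, and 1918 of them went the same way. The larger count at 21 °C depends on the fit of all root libraries. In fits of only the 6 libraries of each comparison, 3486 genes were called at 27 °C and 3039 at 21 °C. Across the 20355 genes, which are not independent replicates, the 2 log2 fold changes had a Pearson r of 0.781 and a Spearman rho of 0.554. The photosystem list had 27 higher and 0 lower at 21 °C (median 1.48), the aliphatic glucosinolate list 19 lower and 0 higher (median −1.26), the indole list 10 lower and 0 higher (median −0.60), and the iron list 17 lower and 1 higher (median −0.53). The meristem and cap list had 4 higher and 0 lower (median 0.38). The sulfate list had 7 lower and 1 higher (median −0.54), and the PIF and shade list 5 higher and 0 lower (median 0.37). Some lists were less alike at the 2 temperatures. The clock list had 8 lower at 21 °C (median −0.12) but also 4 higher, with CCA1 and LHY among them. The cell cycle list went from 4 higher and 0 lower at 27 °C to 0 higher and 2 lower at 21 °C. The flavonoid list went from 1 higher and 3 lower to 3 higher and 1 lower.

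The size of the phyAB against hy5 difference itself differed between temperatures in 161 genes (0.791%), 68 with a more positive value at 27 °C (0.334%) and 93 with a more negative one (0.457%). That count changed when single libraries were left out, and each such fit has fewer libraries. It was 104 without hy5 27 °C replicate 1, 34 without hy5 27 °C replicate 2 and 72 without hy5 21 °C replicate 3. Without phyAB 27 °C replicates 1, 2 and 3 it was 88, 61 and 31, and without phyAB 21 °C replicate 2 it was 61. BCAT4 was among them, with a log2 fold change of −2.98 at 27 °C and −1.65 at 21 °C (difference −1.33 ± 0.24, adjusted p = 0.014, edgeR). CYP83A1 had a difference of −1.12 ± 0.23 (adjusted p = 0.0302, edgeR). Both glucosinolate genes lay further below hy5 at 27 °C than at 21 °C in phyAB. The call for BCAT4 was lost without hy5 27 °C replicate 2 (adjusted p = 0.0575, edgeR) or phyAB 27 °C replicate 3 (0.0586). That for CYP83A1 was lost without hy5 27 °C replicate 2 (adjusted p = 0.105, edgeR) or 3 (0.0544), hy5 21 °C replicate 2 (0.0554) or 3 (0.0697), any phyAB 27 °C replicate (0.0624 to 0.096) or phyAB 21 °C replicate 1 (0.068), and stood at the threshold without phyAB 21 °C replicate 3 (0.05).

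**Figure D5:**
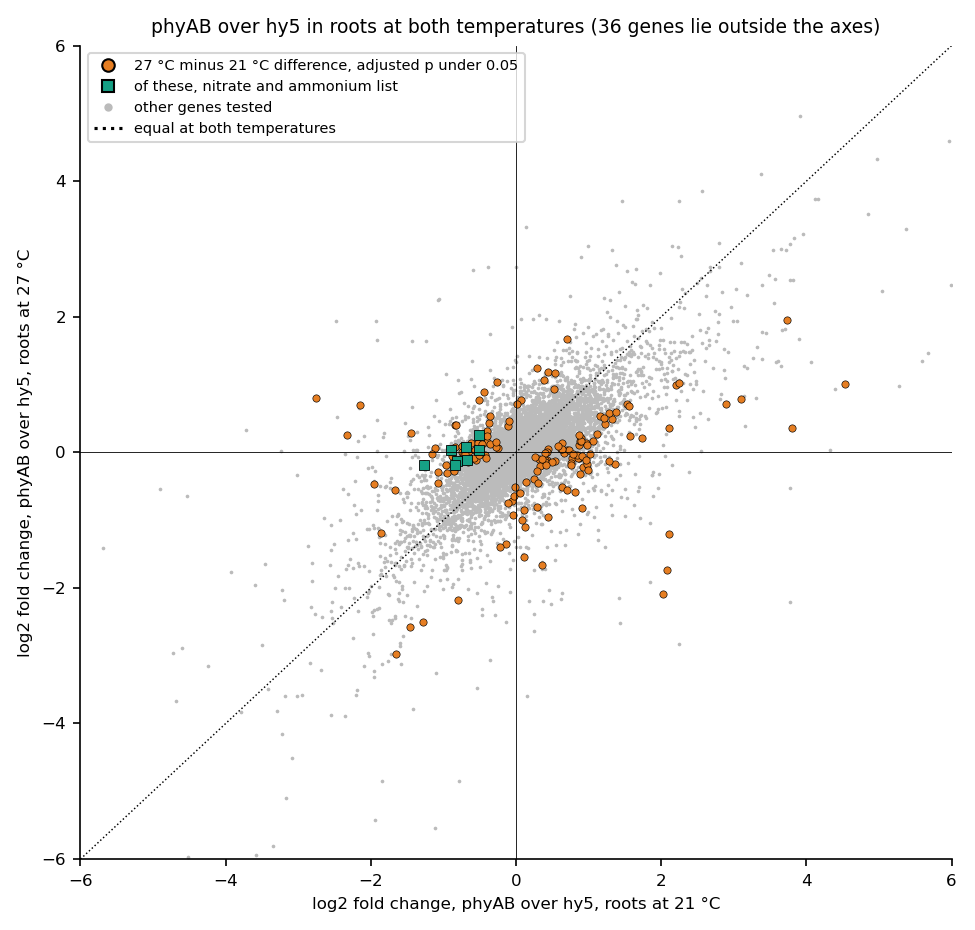
Log2 fold change of phyAB over hy5 in roots at 27 °C (vertical) against that at 21 °C (horizontal) for each tested gene, with 36 genes outside the axes not drawn. Orange dots are the genes whose 27 °C minus 21 °C difference was called. Green squares are only the 8 called members of the nitrate and ammonium list, which lie below 0 at 21 °C and nearer 0 at 27 °C.

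Nitrate and ammonium genes held 8 of those calls. Of 23 tested, 2 were higher and 2 lower in phyAB at 27 °C (median 0.00), whereas 3 were higher and 13 lower at 21 °C (median −0.51), and for 8 the difference between temperatures was called, all more positive at 27 °C. RFNR2, a root ferredoxin reductase that feeds electrons to nitrite reductase, read 204, 209 and 210 CPM in phyAB and 197, 180 and 210 CPM in hy5 at 27 °C. At 21 °C it read 490, 450 and 478 CPM in phyAB and 766, 731 and 784 CPM in hy5, a difference between temperatures of 0.77 ± 0.11 (adjusted p = 0.00265, edgeR). The mutants overlapped at 27 °C and were apart at 21 °C. NIA1, a nitrate reductase, read 36.2, 41.3 and 37.7 CPM in phyAB and 39.4, 41.6 and 49.6 CPM in hy5 at 27 °C, which did not pass the test (−0.18 ± 0.17 on the log2 scale, adjusted p = 0.578 in edgeR). At 21 °C it read 97.6, 62.6 and 92.0 CPM in phyAB and 202, 188 and 218 CPM in hy5, with a difference of 1.09 ± 0.24 (adjusted p = 0.0354, edgeR). NIA1 again had the mutants apart at 21 °C alone. The other 6 were NIR1, nitrite reductase (0.68 ± 0.14), G6PD3, a plastid glucose-6-phosphate dehydrogenase (0.94 ± 0.13), UPM1, a siroheme enzyme (0.65 ± 0.11), RFNR1 (0.54 ± 0.10), FD3, a root ferredoxin (0.56 ± 0.11), and GSR2, a cytosolic glutamine synthetase (0.77 ± 0.17). The list was set apart after its values were seen. The count of 8 was 2 without hy5 27 °C replicate 2, 5 without hy5 27 °C replicate 1, 4 without hy5 21 °C replicate 3, 4 without phyAB 21 °C replicate 2, and 3 without phyAB 27 °C replicate 2, phyAB 27 °C replicate 3 or phyAB replicate 3 at both temperatures; G6PD3 and RFNR2 kept their calls in all these runs.

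The 4 members called at 27 °C were 3 transporters and a repressor. AMT1;2, a root ammonium transporter, read 132, 128 and 135 CPM in phyAB, 308, 271 and 283 CPM in hy5 and 147, 73.3 and 89.0 CPM in Col-0 (log2 fold change −1.13 ± 0.16, adjusted p = 9.43e-05, edgeR). NRT1.1, the dual-affinity nitrate transporter and sensor, was higher in phyAB at 428, 367 and 443 CPM, against 255, 225 and 267 CPM in hy5 and 367, 260 and 328 CPM in Col-0 (0.73 ± 0.14, adjusted p = 0.00102, edgeR). LBD39, a repressor of nitrate-responsive genes, read 44.4, 43.6 and 46.5 CPM in phyAB, 60.3, 69.0 and 71.7 CPM in hy5 and 41.1, 35.9 and 37.7 CPM in Col-0 (−0.58 ± 0.07, adjusted p = 1.92e-05, edgeR). In AMT1;2 hy5 stood above Col-0 and phyAB overlapped it, whereas in LBD39 both mutants lay above Col-0, hy5 furthest. In NRT1.1 the phyAB and Col-0 libraries overlapped and the lowest Col-0 library lay within the hy5 range. NRT2:1, a high-affinity nitrate transporter, was the other higher call, at 2.18, 2.95 and 3.01 CPM in phyAB and 0.566, 0.509 and 1.02 CPM in hy5 (1.97 ± 0.53, adjusted p = 0.0157, edgeR); the call was lost without hy5 replicate 1 (0.0609), hy5 replicate 2 (0.0739) or phyAB replicate 2 (0.0521).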

How the data were processed

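Poly(A) RNA of 36 libraries was sequenced; the deposited files hold whole-number read counts per gene, made by the authors with TopHat2 and HTSeq on TAIR10, per the submitters' processing notes, which give no versions and no strand setting for counting. Reads of overlapping or antisense genes may therefore be mixed, and reads aligned to several places (5% to 10.4% in root libraries), which HTSeq leaves out, lower near-identical copies. The 5 HTSeq summary rows entered neither library sizes nor tests.

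The 32833 genes were filtered with edgeR 4.0.16 (filterByExpr), which left 20355, normalised by TMM and fitted in 1 quasi-likelihood model of all 18 root libraries in 6 groups without a block (R 4.3.3). Adjusted p-values are Benjamini-Hochberg values over the 20355 genes, with a threshold of 0.05; ± is the standard error of the log2 fold change. CPM are counts scaled with TMM factors; marker sums use factors over all 36 libraries. The procedure was tested on simulated data. Replicates of a group differed by more than sampling noise (chi-square per degree of freedom 3.27 to 5.9 in the mutant groups at 27 °C). The range was 4.25 to 11.1 in Col-0 at 27 °C and 4.69 to 12.6 in the root groups at 21 °C. Named genes were the mutated genes, the 12 largest non-overlapping changes in each direction with at least 5 CPM, up to 4 called members per list and direction, and the 5 largest temperature differences in each direction; exceptions are marked. Members and lists were chosen with earlier results of these data known. Gene symbols, coordinates and promoters come from RefSeq's TAIR10.1 (32548 genes matched). Of 764 entries in 38 lists, 763 were in the files. Alternatives were DESeq2 size factors, DESeq2 1.42.0, no filter, fewer libraries, a replicate block and leaving out each library; those on single genes' temperature differences and on the nitrate list were added after seeing the data.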

Additional observations from a re-analysis of the deposited data

Results flagged for a closer look

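For 10 genes the difference between phyAB and hy5 roots was itself different at 27 °C and at 21 °C, by the test of the 27 °C minus 21 °C difference in edgeR (adjusted p in each sentence), and they were the 5 with the largest such value in each direction among genes with at least 5 CPM in a group. ERD5, proline dehydrogenase, had a difference of −2.02 ± 0.26 on the log2 scale (adjusted p = 0.00172, edgeR): it read 89.2, 72.4 and 73.8 CPM in phyAB and 202, 273 and 272 CPM in hy5 at 27 °C, but 218, 309 and 218 CPM in phyAB and 219, 199 and 164 CPM in hy5 at 21 °C. CYP710A4, a sterol desaturase, had a difference of 1.73 ± 0.28 (adjusted p = 0.00698, edgeR): it read 2.28, 3.86 and 2.45 CPM in phyAB and 2.16, 2.7 and 2.21 CPM in hy5 at 27 °C, and 2.56, 2.81 and 2.09 CPM in phyAB and 7.68, 6.98 and 5.75 CPM in hy5 at 21 °C. ERD5 and CYP710A4 kept these calls in each of the 12 runs that left out a library.

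The other 8 each lost the call without at least 1 library. AT4G34950 had a difference of 1.49 (adjusted p = 0.0166, edgeR; 0.0624 without phyAB 27 °C replicate 3). MIOX2, a myo-inositol oxygenase, had −1.64 (adjusted p = 0.0273, edgeR), and its highest adjusted p was 0.0959, without hy5 27 °C replicate 2. CYP81F2, an indole glucosinolate enzyme, had 2.58 (adjusted p = 0.0293, edgeR; highest 0.0975, without hy5 27 °C replicate 2). CRY3, a cryptochrome-like protein of organelles, had −2.17 (adjusted p = 0.0341, edgeR; highest 0.13, without hy5 27 °C replicate 1). CBP60G, an activator of salicylic acid synthesis, had 3.56 (adjusted p = 0.0411, edgeR; highest 0.198, without phyAB 27 °C replicate 3). bZIP1, a low-energy transcription factor, had −1.74 (adjusted p = 0.0417, edgeR; highest 0.134, without hy5 27 °C replicate 2). AT5G39580 had 2.86 (adjusted p = 0.0469, edgeR; highest over those runs 0.143, without hy5 27 °C replicate 2), and its value was 1.58 without phyAB 27 °C replicate 2, the library with 19.5 CPM beside 3.04 and 4.54 CPM in the other phyAB libraries. AT4G15990 had −2.32 (adjusted p = 0.0485, edgeR; highest 0.136, without hy5 27 °C replicate 2).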

How the results depend on the processing

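The count of genes called between phyAB and hy5 at 27 °C (2870) was 2871 with DESeq2 size factors in edgeR, 2828 with no filter on low counts, 3486 in a fit of the 6 libraries alone, 2740 in DESeq2 and 2323 without phyAB replicate 3 at both temperatures; leaving out 1 library of the comparison gave 2023 to 2320 (1022 to 1202 higher and 1001 to 1153 lower). The 21 °C count (5051) was 3039 in a fit of its own 6 libraries and 3892 to 5111 when 1 library was left out. The count for the 27 °C minus 21 °C difference (161) moved most: 91 in a fit of its own libraries, 63 without phyAB replicate 3 at both temperatures, 363 in DESeq2, and 31 to 221 when 1 library was left out; the cause was not tested, though each smaller fit has fewer libraries. Leaving out 1 library gave 5182 to 5578 for phyAB against Col-0 and 5529 to 6256 for hy5 against Col-0. Of 190 named genes, 179 kept direction and side of the threshold in DESeq2, 190 with DESeq2 size factors, 188 with no filter and 152 to 162 when 1 library was left out. Without phyAB 27 °C replicate 2 the uncalled 27 °C values of AT5G39580 and CYP710A4 turned to −0.573 and 0 on the log2 scale, and the other left-out libraries took them as far as 1.13 and 0.429. Counts in lists of few called members moved by over 1.5 times in 13 to 20 of 76 list counts when 1 library was left out.

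The labels do not say that a replicate number marks a shared batch. The deviations of same-numbered phyAB and hy5 libraries at 27 °C correlated at 0.0459, 0.188 and 0.201. Over the 6 pairs of mutant groups the range was 0.00251 to 0.332, and 2 pairs, phyAB at 27 °C with phyAB at 21 °C and hy5 at 27 °C with phyAB at 21 °C, had all 3 values over 0.1, so the numbers were not taken as pairs. In 3 of the 6 pairs, phyAB with hy5 at 27 °C among them, every library correlated best with its own number, which is a hint from the data. With a replicate block the 27 °C count was 3195, the count for the difference between temperatures 249, the clock list had 12 lower and 2 higher, the heat shock list 6 lower, and the temperature difference of AT5G39580 was no longer called (adjusted p = 0.0517, edgeR).

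Depth of 14810514 to 24006279 counted reads limits genes near 0, and where a mutant had at most 3 reads over its libraries, reads and a ratio or bound are given in place of fitted values.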

Other observations

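A few gene groups without a place above are given as values, beside 7.18% of all tested genes higher and 6.92% lower. Of 8 flowering time genes, 1 was higher and 4 lower in phyAB than in hy5 roots at 27 °C. FLC, the repressor set by winter cold, read 6.9, 6.6 and 8.4 CPM in phyAB, 3.3, 4.32 and 2.21 CPM in hy5 and 7.3, 5.43 and 6.92 CPM in Col-0 (log2 fold change 1.13 ± 0.20, adjusted p = 0.000648, edgeR). Its relative MAF4 went the other way, at 1.72, 2.04 and 1.78 CPM in phyAB, 4.48, 5.7 and 4.91 CPM in hy5 and 3.4, 2.87 and 3.86 CPM in Col-0 (−1.44 ± 0.16, adjusted p = 3.8e-06, edgeR). The mutants did not overlap in either gene. Among 25 genes of low sugar and sugar transport 2 were higher and 6 lower: DIN10, a gene induced by darkness and sugar lack, read 369, 304 and 282 CPM in phyAB, 744, 1000.8 and 938 CPM in hy5 and 290, 474 and 691 CPM in Col-0 (−1.49 ± 0.20, adjusted p = 5.1e-05, edgeR). STP1, a hexose transporter, was higher in phyAB at 209.8, 207.3 and 185.5 CPM, against 109.6, 129.7 and 122.9 CPM in hy5 (0.73 ± 0.11, adjusted p = 0.000196, edgeR). Of 19 phosphate starvation genes 2 were higher and 5 lower, of 16 suberin genes 1 and 2, of 19 aquaporins 3 and 1, of 14 brassinosteroid genes 4 and 1, of 14 abscisic acid genes 1 and 0, of 20 jasmonate genes 0 and 3, of 16 salicylic acid and immunity genes 0 and 1, of 14 phenylpropanoid genes 0 and 2, and of 10 ribosome biogenesis genes 0 and 0. These small counts changed when single libraries were left out, and each such fit has fewer libraries. Leaving out 1 of the 6 moved them by over 1.5 times in the low sugar, phosphate, suberin, aquaporin, brassinosteroid, abscisic acid, jasmonate and immunity lists. Brassinosteroid genes were at 1 higher without hy5 replicate 2, hy5 replicate 3 or phyAB replicate 1 and at 2 without phyAB replicate 2 or 3. Jasmonate genes were at 1 lower when any one library but phyAB replicate 3 was left out. Without phyAB replicate 3 the phosphate list had 1 higher, and the brassinosteroid, aquaporin and immunity lists 0 lower. None of the 10 seed storage and oil body genes was expressed enough to test.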
